A study of Mus musculus with 9 samples.

Results

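The genes described here are Atf4 and 9 genes of the integrated stress response: Atf3, Atf5, Ddit3, Ddit4, Asns, Trib3, Sesn2, Chac1 and Cebpg. They were chosen by name, with no measured value in the rule, but with earlier results of these data known. They make up 10 of the 55401 genes of the count table. All 10 were matched, and all 10 passed the filter on low counts. Poly(A) RNA was sequenced from mouse peritoneal macrophages elicited with Thio, the usual short name of thioglycollate, an irritant used to recruit such cells. The 9 libraries comprised 3 from wild type mice (WT), 3 from Stat6S807A/S807A mice (SA) and 3 from Stat6S807E/S807E mice (SE). STAT6 is the transcription factor activated through the interleukin-4 and interleukin-13 receptors, and the series title ties its phosphorylation at Ser807 to macrophage senescence. In both mutants Ser807 was replaced on both alleles, by alanine (S807A), which cannot carry a phosphate, or by glutamate (S807E), whose negative charge is a common stand-in for one.

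All 3 groups were kept alike, in DMEM with 10% serum, and collected after brief adherence. The labels name no added cytokine or stressor and give no age or sex. Nor do they say that the 3 libraries of a group came from separate animals, so p-values reflect only the spread among these samples, which may be technical.

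The integrated stress response starts with kinases that sense amino acid shortage, haem loss, double-stranded RNA or misfolded protein in the endoplasmic reticulum and phosphorylate the initiation factor eIF2. Translation then falls in general, while open reading frames upstream in the Atf4 transcript let its coding sequence be translated, so the amount of Atf4 mRNA is not a measure of ATF4 protein. ATF4, a basic leucine zipper factor, binds with C/EBP partners to composite sites and raises genes for amino acid import, amino acid synthesis and tRNA charging, and with CHOP it raises genes that end the response or lead to cell death.

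Library totals lay between 17286617 and 24618608 counts. Levels are given in CPM, the usual unit of counts per library size, scaled here by TMM. A count of 3 was worth 0.120 to 0.176 CPM, a limit for counting error only. Stat6 itself averaged 195 ± 7.53 CPM in WT libraries, 198 ± 2.92 in SA and 296 ± 14.6 in SE (SD, n = 3 each, as for every mean below). The SE level exceeded that of WT 1.51-fold (edgeR adjusted p = 6.27e-06), while SA and WT differed by 0.02 on the log2 scale (edgeR adjusted p = 0.946). The 8 macrophage markers, among them Adgre1, Csf1r and Lyz2, were all present, with summed levels of 18230 to 23360 CPM in WT libraries, 18400 to 19130 in SA and 18210 to 20950 in SE. Of these 8 markers, 3 fell in SE against WT: Cd14 (1.41-fold, edgeR adjusted p = 0.000219), Mertk (1.27-fold, 0.0195) and Fcgr1 (1.23-fold, 0.0157), with a median log2 difference of -0.21 over the 8. In SA against WT 1 rose, Cd14 (1.25-fold, edgeR adjusted p = 0.00601). The part of these markers in the results below was not tested. T and NK cell markers summed to at most 0.0799 CPM and mast cell markers to at most 0.372. B cell markers summed to 0.639 to 1.21 CPM in WT libraries, 0.561 to 0.617 in SA and 0.291 to 0.524 in SE, and dendritic cell markers stayed at or below 1.85 CPM. Neutrophil markers summed to 165 to 188 CPM in WT libraries, 166 to 191 in SA and 189 to 210.5 in SE, and nearly all of each sum was Csf3r (means of 178, 177 and 197 CPM). S100a8, S100a9 and Cxcr2 averaged at most 1.62 CPM in any group, and Ly6g and Retnlg had 0 counts in every library. Eosinophil markers summed to 25.2 to 28.5, 21.96 to 26.75 and 21.1 to 28.0 CPM. Mesothelial and fibroblast markers differed between the groups: they summed to 3.24 to 4.65 CPM in WT libraries, 41.6 to 47.0 in SA and 7.45 to 11.5 in SE. Of the 10 listed, 6 had at most 10 counts in every library, with Msln and Wt1 at 0 throughout. Across genotypes, WT2 and SE3 shared 1 end of the third principal component of log2 CPM (-16.24 and -17.09), and WT1 and SE2 the other (13.29 and 14.85). Without WT2 and SE3, 1, 4 and 4 of the 10 genes were called in SA against WT, SE against WT and SE against SA, and without WT1 and SE2, 1, 3 and 3. With all 9 libraries the counts were 1, 5 and 2. Calls over all tested genes in SE against WT also moved under both settings, as given in the closing section. In such bulk samples, fewer cells of a type and less RNA per cell cannot be told apart.

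The 10 genes spanned a wide range of abundance. Per kilobase of annotated exon, Atf3 stood highest, at a mean of 372.6 CPM per kb over the 9 libraries (lowest 340.6, highest 417.6), above 99.3% of all 13501 tested genes. Atf3 encodes a stress-induced bZIP repressor that is also an immediate early gene of activated macrophages. Atf4 followed with 49.5 CPM per kb (45.3 to 55.8) and Atf5 with 29.9 (22.6 to 38.3), with no overlap between either and its neighbours in the order. Ddit3 (16.6 CPM per kb, 14.3 to 20.7) and Cebpg (15.2, 13.2 to 17.3) overlapped in range, as did Asns (3.92, 2.79 to 5.03) and Sesn2 (3.71, 3.22 to 4.37). Trib3 stood at 1.60 CPM per kb (0.902 to 1.87). Ddit4 (0.495, 0.232 to 0.703) and Chac1 (0.208, 0.0359 to 0.419) overlapped at the bottom, above 13.1% and 5.2% of the tested genes. The transcription factors of the response were thus among the more abundant transcripts of these cells, and Ddit4 and Chac1 among the scarcest.

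**Figure D1:**
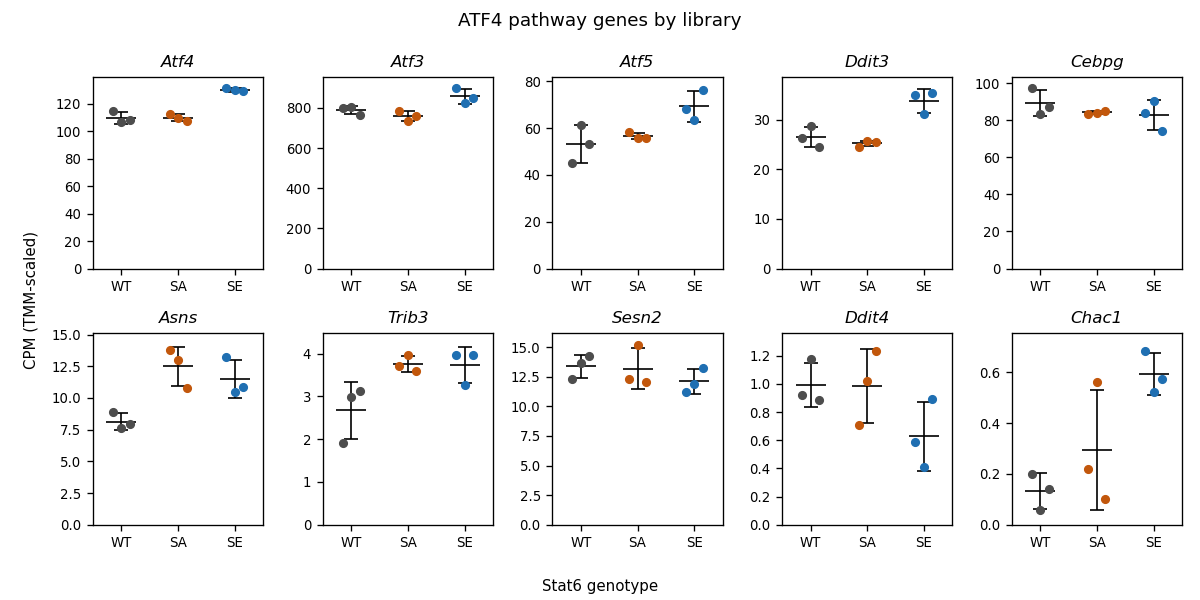
Levels in CPM (TMM-scaled) of each of the 10 genes in the 9 libraries, 1 panel per gene with its own axis from 0. Points are libraries, horizontal lines group means and error bars SDs. For Atf4 the 3 SE libraries lie at 129 to 131.5 CPM, above all WT and SA libraries, and for Asns all 6 mutant libraries lie above all WT libraries.

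In SE macrophages 5 of the 10 genes rose relative to WT and 0 fell. The 5 were Atf4, Atf5, Ddit3, Asns and Chac1, with fold changes from 1.18 for Atf4 to 4.11 for Chac1. In this comparison edgeR called 5.04% of all tested genes, 2.35% as higher and 2.69% as lower. At an unadjusted p under 0.05 edgeR marked 6 of the 10 as higher and 0 as lower, against 18.3% of all tested genes. DESeq2 called 4 as higher and 0 as lower, since it gave no adjusted p for Chac1. The groups did not overlap for 7 of the 10 genes, all higher in SE, against 20.5% of all tested genes in either direction and 10.1% in that direction. The median log2 difference of the 10 genes was 0.30, beside 0.00 over all genes, with a range from -0.63 (Ddit4) to 2.04 (Chac1). The count of 5 depended on single libraries: it was 0 without WT3 and 0 without SE1, and 3 when only the WT and SE libraries were fitted. Calls over all tested genes moved too, from 680 to between 292 and 1097 with 1 library left out. Under the alternative settings given below, log2 differences ran from 0.22 to 0.27 (Atf4), 0.27 to 0.50 (Atf5), 0.30 to 0.41 (Ddit3), 0.38 to 0.63 (Asns) and 1.77 to 2.54 (Chac1).

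In SA macrophages 1 of the 10 genes, Asns, rose relative to the same WT libraries and 0 fell. Across all tested genes edgeR called 4.07% in this comparison, 1.97% as higher and 2.1% as lower. The unadjusted p was under 0.05 for 2 of the 10 (13.7% of all tested genes), Asns and Trib3, both higher, and DESeq2 called 1 as higher and 0 as lower. The same 2 genes were those whose groups did not overlap, against 19.3% of all genes in either direction and 9.6% for higher. The median log2 difference was 0.00, the same as over all genes, with a range from -0.09 (Cebpg) to 1.02 (Chac1). Asns was no longer called without SA1, which left a count of 0.

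Between the mutants, 2 of the 10 genes, Atf4 and Ddit3, were higher in SE than in SA, and 0 were lower. edgeR called 10.2% of all tested genes here, 4.77% as higher in SE and 5.42% as lower. The unadjusted p was under 0.05 for 4 genes (22.7% of all tested), all higher, and DESeq2 called 4 as higher (Atf3 and Atf5 besides) and 0 as lower. The groups did not overlap for 4 genes, all higher in SE, against 28.3% of all genes in either direction and 14.2% in that one. Their median log2 difference was 0.08, beside 0.00 over all genes. The comparisons share libraries (WT for both mutants, SE and SA with the third), so they are not independent of each other.

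**Figure D2:**
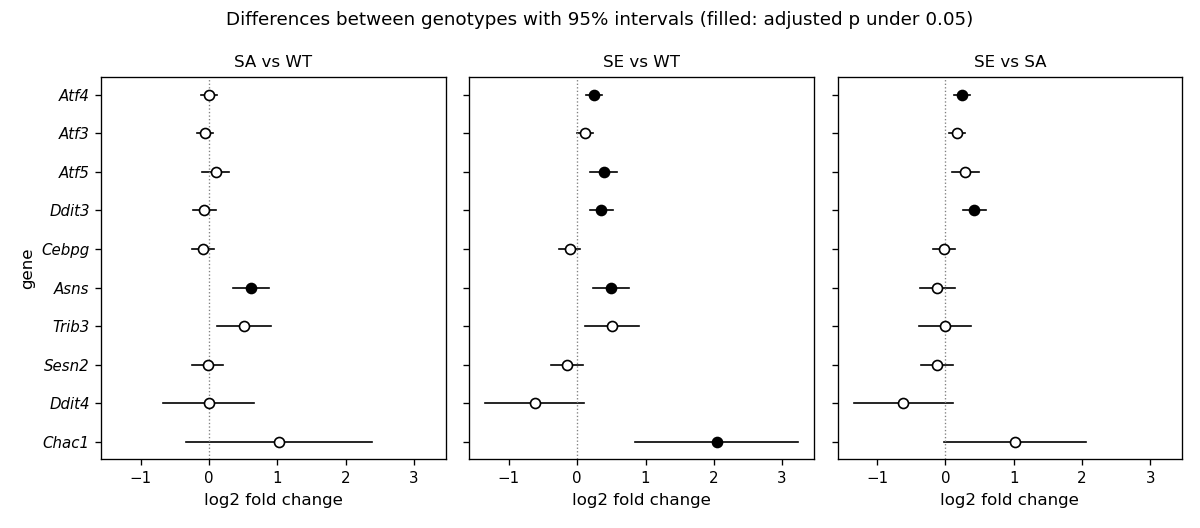
Log2 differences of the 10 genes in the 3 comparisons, with 95% confidence intervals from the edgeR fit; filled points have an adjusted p under 0.05 over all tested genes. Atf4 and Ddit3 lie to the right of 0 in both comparisons that hold SE and near 0 in SA against WT, whereas Asns lies to the right of 0 in both mutants against WT and near 0 between them.

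Atf4 (ENSMUSG00000042406, mm10 chromosome 15, 80255184 to 80257541) encodes the central transcription factor of the response. Its transcript stood at 115, 107 and 108 CPM in the WT libraries and 113, 109.9 and 107.5 in SA. The SE libraries gave 131.5, 130.0 and 129. All SE libraries lay above all others, and SE was also the group with the least spread. The means were 110.0 ± 4.32 CPM in WT libraries, 110.0 ± 2.60 in SA and 130.2 ± 1.23 in SE. Relative to WT, Atf4 was 1.18-fold higher in SE (0.24 ± 0.06 on the log2 scale with its standard error, edgeR adjusted p = 0.0163). Against SA the fold was also 1.18 (edgeR adjusted p = 0.00975). Between SA and WT the difference was 0.00 ± 0.06, with a 95% interval of 0.921-fold to 1.09-fold. The SE against WT call ended when only those groups were fitted (edgeR adjusted p = 0.0543), without WT3 (0.102) and without SE1 (0.0733), and the SE against SA call ended without SA3 (0.0577).

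Ddit3 (ENSMUSG00000025408, chromosome 10, 127290774 to 127296288) encodes CHOP, the factor that ATF4 induces and that acts with it late in the response. The values were 26.4, 28.7 and 24.5 CPM in WT libraries, 24.6, 25.6 and 25.5 in SA, and 34.9, 31.1 and 35.4 in SE. The SE libraries again lay above all the others. Relative to WT, Ddit3 was 1.28-fold higher in SE (95% interval 1.14 to 1.44, edgeR adjusted p = 0.0136). Relative to SA the fold was 1.34 (1.19 to 1.51, edgeR adjusted p = 0.00227). The difference from SA passed the test under all 18 alternatives, with a highest edgeR or DESeq2 adjusted p of 0.019, while that from WT ended without WT3 (0.11) and without SE1 (0.0781). SA and WT differed by -0.07 on the log2 scale (edgeR adjusted p = 0.816). Ddit3 lies 347 kb from Stat6, the edited gene. Of the 61 tested genes within 1 Mb of Stat6, 2 were called in SE against WT, both higher (Ddit3 and Atp5b). In SE against SA 6 were called, all higher. Of all tested genes, 5.04% were called in SE against WT (2.35% higher) and 10.2% in SE against SA (4.77% higher). This neighbourhood was looked at after the position of Ddit3 was seen. The median log2 difference of the 61 genes was 0.05 and 0.06 in these comparisons, with 38 and 41 of them above 0. The part of this neighbourhood in the Ddit3 result was not tested. Ddit3 shares 68 exonic bases with Mars on the opposite strand (865 to 1178 counts per library), and the strand setting of the counting is not given in the sources used here. The log2 difference of Mars was 0.26 in SE against WT (edgeR adjusted p = 0.0572), 0.13 in SE against SA (0.335) and 0.13 in SA against WT (0.508). The part of this overlap in the Ddit3 result was not tested.

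Atf5 (ENSMUSG00000038539, chromosome 7, 44812256 to 44816658) encodes a bZIP factor that, like ATF4, is translated through upstream reading frames and acts in the mitochondrial stress response. It stood at 45.0, 61.5 and 53.0 CPM in WT libraries, 58.3, 55.8 and 55.8 in SA, and 68.1, 63.4 and 76.3 in SE. All SE libraries lay above all WT libraries, but SE2 exceeded WT2 by little. The SE fold over WT was 1.31 (95% interval 1.14 to 1.50, edgeR adjusted p = 0.0225), and over SA it was 1.22 (1.07 to 1.40, edgeR adjusted p = 0.0596). The difference from SA passed under 8 of the 18 alternatives, with adjusted p from 0.00361 to 0.191 over all of them. The call against WT ended when only those groups were fitted (0.0685), without WT1 (0.0924), WT3 (0.103), SE1 (0.0772) or SE3 (0.0712), and without WT1 and SE2 together (0.0508). Atf5 shares 82 exonic bases with Nup62 on the opposite strand (1802 to 2381 counts).

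Atf3 (ENSMUSG00000026628, chromosome 1, 191170296 to 191218039) stood at 801, 803 and 766.5 CPM in WT libraries, 785, 734 and 762 in SA, and 899.5, 824 and 848 in SE. The SE libraries were the highest, with a fold over WT of 1.08 (95% interval 0.999 to 1.18, edgeR adjusted p = 0.282) and over SA of 1.13 (1.04 to 1.22, edgeR adjusted p = 0.061). Neither passed the test, although the difference from SA did under 3 of the 18 alternatives (DESeq2, without WT2, and without WT2 and SE3). Cebpg (ENSMUSG00000056216, chromosome 7, 35046422 to 35056573), a C/EBP member that forms dimers with ATF4, averaged 89.3 ± 7.07 CPM in WT libraries, 84.2 ± 0.782 in SA and 82.8 ± 7.96 in SE. Its groups overlapped in all 3 comparisons, with edgeR adjusted p of 0.729, 0.475 and 0.893 for SA against WT, SE against WT and SE against SA.

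Asns (ENSMUSG00000029752, chromosome 6, 7675169 to 7693254) encodes asparagine synthetase, a classic amino acid response target of ATF4. Its levels were 8.87, 7.63 and 7.91 CPM in WT libraries, 13.8, 13.0 and 10.8 in SA, and 13.2, 10.5 and 10.8 in SE. All 6 mutant libraries lay above all WT libraries. Asns was 1.53-fold higher in SA than in WT (95% interval 1.28 to 1.84, edgeR adjusted p = 0.00578) and, against the same WT libraries, 1.41-fold higher in SE (1.18 to 1.70, edgeR adjusted p = 0.0265). SE and SA differed by -0.12 ± 0.12 on the log2 scale (95% interval 0.773-fold to 1.10-fold, edgeR adjusted p = 0.613). The SA call ended without SA1 (0.0558), and the SE call ended without WT3 (0.13) and without SE1 (0.181). Only 4 of the 10 mesothelial and fibroblast markers given above could be tested. All 4 were called higher in SA than in WT, and 2 of 4 higher in SE than in WT. In SE against SA all 4 were called lower. The part of these markers in the Asns result was not tested.

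Chac1 (ENSMUSG00000027313, chromosome 2, 119351229 to 119354381) encodes an enzyme that degrades glutathione and is induced by ATF4. It was close to the limit of detection, with 5, 1 and 3 counts in WT libraries, 5, 11 and 2 in SA, and 14, 9 and 11 in SE. In CPM these were 0.200, 0.0587 and 0.140 in WT libraries, 0.220, 0.5605 and 0.103 in SA, and 0.686, 0.524 and 0.576 in SE. The SE libraries lay above all WT libraries, and SA2 lay within the SE range. The fitted fold of SE over WT was 4.11 (edgeR adjusted p = 0.0463). The ratio of summed counts (34 against 9), scaled for library size, was 4.24 with a 95% counting interval of 1.99 to 10.0. The call ended in 11 of the 16 alternatives that gave an adjusted p, over which it ranged from 0.0214 to 0.182. Among these were all that left out 1 WT or SE library, and the one without SA1. SE over SA gave an edgeR adjusted p of 0.228, and SA over WT 0.573.

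Trib3 (ENSMUSG00000032715, chromosome 2, 152337422 to 152344032) encodes a pseudokinase that is induced by ATF4 and CHOP and feeds back on ATF4. It stood at 1.92, 2.99 and 3.12 CPM in WT libraries, 3.70, 3.98 and 3.60 in SA, and 3.97, 3.26 and 3.98 in SE. All mutant libraries lay above all WT libraries in CPM. The 9 libraries held 48 to 84 counts each. The fold over WT was 1.42 in SA and 1.42 in SE (95% intervals 1.08 to 1.87 in both), and neither passed the test (edgeR adjusted p = 0.181 and 0.146). Sesn2 and Ddit4, which encode inhibitors of mTORC1 signalling, passed it in no comparison. Sesn2 (ENSMUSG00000028893, chromosome 4, 132492032 to 132510501) ranged from 11.2 to 15.2 CPM over the 9 libraries, and the groups overlapped. Ddit4 (ENSMUSG00000020108, chromosome 10, 59949669 to 59951834) had 19 to 23 counts in WT libraries, 16 to 24 in SA and 7 to 17 in SE. Its means were 0.992 ± 0.158, 0.986 ± 0.266 and 0.629 ± 0.244 CPM. The SE fold over WT had a 95% interval of 0.393 to 1.07 (edgeR adjusted p = 0.355), so the direction of Ddit4 was not determined at this depth.

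The sequences before the transcription starts were searched for TGATGNAA, the letters of the C/EBP-ATF composite site, on both strands of windows from 250 bases before to 50 after each RefSeq start (RefSeq, GRCm38.p6, the same assembly as mm10). All 10 genes matched the RefSeq table. The letters were found for 4 of the 10 genes, Asns, Atf3, Chac1 and Trib3, and in 4 of the 11 windows of the 10 genes. Over all 32851 windows the share was 3.97%. The match of Trib3 lay after the start, at position 15 (TGATGTAA on the opposite strand), and is not printed. The wider lists described next were counted per gene, not per window. The letters were held by 5 of 9 genes of tRNA charging and export under ATF4 with a window. They were also held by 2 of 6 transporters, 2 of 10 amino acid enzymes and 0 of 5 other synthetases. The 250 bases before the start are given for the 3 genes that hold the letters there and for Atf4, which rose in SE and does not hold them. They are printed in the direction of the gene, with the match in capitals, for Asns (chr6:7693210-7693459, minus strand), Atf3 (chr1:191183334-191183583, minus strand), Chac1 (chr2:119350992-119351241, plus strand) and Atf4 (chr15:80254934-80255183, plus strand).
Asns: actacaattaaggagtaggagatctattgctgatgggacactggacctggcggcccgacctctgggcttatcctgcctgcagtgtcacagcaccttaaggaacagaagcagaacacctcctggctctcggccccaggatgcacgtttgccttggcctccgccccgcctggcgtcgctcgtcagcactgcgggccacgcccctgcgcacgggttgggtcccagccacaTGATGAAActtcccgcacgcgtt
Atf3: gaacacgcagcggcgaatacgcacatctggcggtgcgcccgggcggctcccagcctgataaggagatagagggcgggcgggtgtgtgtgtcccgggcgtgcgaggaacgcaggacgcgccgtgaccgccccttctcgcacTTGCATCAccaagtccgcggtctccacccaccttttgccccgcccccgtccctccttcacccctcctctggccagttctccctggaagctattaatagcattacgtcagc
Chac1: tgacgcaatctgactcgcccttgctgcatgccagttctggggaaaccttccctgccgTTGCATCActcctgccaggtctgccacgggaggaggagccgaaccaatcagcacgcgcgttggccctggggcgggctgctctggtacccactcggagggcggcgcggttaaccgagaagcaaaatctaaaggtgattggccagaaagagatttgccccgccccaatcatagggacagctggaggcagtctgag
Atf4: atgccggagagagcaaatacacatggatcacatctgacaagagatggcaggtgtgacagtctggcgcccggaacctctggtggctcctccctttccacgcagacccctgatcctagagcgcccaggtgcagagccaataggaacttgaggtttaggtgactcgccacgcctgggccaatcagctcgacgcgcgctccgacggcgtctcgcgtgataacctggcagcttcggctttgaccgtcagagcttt
In Asns the match starts 23 bases before the start as TGATGAAA on the strand of the gene. In Atf3 and Chac1 it lies at -110 and -193 on the opposite strand, so that TGATGCAA reads as TTGCATCA in the printed runs. Of these genes Asns rose in both mutants, Chac1 rose in SE, and Atf3 passed the test in neither. A match is a description of the letters, and no binding was measured here.

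The wider pathway was read from 12 gene lists. Their counts stand beside the shares of all tested genes that edgeR called: 4.07% in SA against WT (1.97% higher), 5.04% in SE against WT (2.35% higher) and 10.2% in SE against SA (4.77% higher). At an unadjusted p under 0.05 the shares were 13.7%, 18.3% and 22.7%. With so few genes in a list, a single call makes a large share, so a list with 1 call is not read as changed. Upstream of ATF4, the 19 genes of the eIF2 kinases and eIF2 control held few changes: 0 rose and 0 fell in SE against WT by edgeR (2 at an unadjusted p under 0.05) and 0 by DESeq2, with a median log2 difference of 0.04. The smallest p was that of Eif2b3, a subunit of the exchange factor of eIF2 (0.23 on the log2 scale, edgeR adjusted p = 0.238). Eif2ak3, which encodes the endoplasmic reticulum kinase PERK, averaged 34.6, 33.7 and 33.1 CPM for WT, SA and SE. Eif2ak4, which encodes the amino acid sensor GCN2, averaged 49.3, 49.5 and 49.0 CPM. In SA against WT 1 of the 19 fell: Impact, an inhibitor of GCN2 activation, was 1.20-fold lower (edgeR adjusted p = 0.0467), a call that ended in 10 of 18 alternatives, among them those without WT1, WT3, SA1, SA2, SA3 or SE1 (0.0545 to 0.314). DESeq2 called 2 of the 19 as lower in SA against WT. In SE against SA 1 was called, Ppp1r15a, which encodes the GADD34 subunit that dephosphorylates eIF2. Its means were 33.3 CPM (WT), 27.1 (SA) and 34.2 (SE), with SE 1.26-fold above SA (edgeR adjusted p = 0.0138). Against WT its difference was 0.04 on the log2 scale for SE (edgeR adjusted p = 0.846) and -0.30 for SA (0.0511). That call ended without SA1, SA2 or SE3, with adjusted p up to 0.0827. Transcript levels do not show the phosphorylation of eIF2, which was not measured.

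Some amino acid transporters rose in both mutants. Of 9 tested, 2 rose and 0 fell in SA against WT, and 4 rose and 0 fell in SE against WT, with median log2 differences of 0.12 and 0.23. Slc1a5, the glutamine transporter ASCT2, averaged 58.2 ± 1.76 CPM in WT libraries, 73.6 ± 3.16 in SA and 80.2 ± 4.24 in SE. Its level was 1.27-fold and 1.38-fold higher in the mutants (edgeR adjusted p = 0.00379 and 3e-04), and both calls held under all 18 alternatives. Slc7a1, which imports arginine and lysine, stood at 13.7, 14.0 and 13.9 CPM in WT libraries, 20.9, 16.5 and 19.4 in SA, and 20.4, 22.2 and 21.3 in SE, with no overlap between WT and either mutant. Its folds over WT were 1.37 in SA (edgeR adjusted p = 0.00771, ended without SA1 at 0.077) and 1.54 in SE (0.000642). Of the mesothelial and fibroblast markers, 4 of 4 tested genes were called in SA against WT (median log2 difference of 3.47) and 2 of 4 in SE against WT (1.29). Some transporters and amino acid enzymes rose in the same comparisons, and Nupr1, described below, rose in SA against WT only. In SE against SA all 4 tested markers were lower (median of -2.26). The medians there were 0.13 for the transporters and 0.10 for the amino acid enzymes. The part of these markers in these results was not tested.

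The subunits of the large neutral amino acid exchanger were also read. Slc7a5, the transport subunit LAT1, exceeded WT 1.52-fold in SE (edgeR adjusted p = 0.0223, ended in 5 alternatives, among them those without WT1, WT3 or SE1 at 0.0908 to 0.141), at 5.53 ± 0.805 against 3.67 ± 0.251 CPM. Slc3a2, the shared heavy chain CD98, averaged 372 ± 17.1 CPM in WT libraries, 328 ± 3.33 in SA and 437 ± 25.2 in SE. The SE level exceeded that of SA 1.33-fold (edgeR adjusted p = 0.000175, held under all alternatives). Over WT the SE fold was 1.18 (0.0266, ended in 8 alternatives, among them those without WT1, WT3, SA1, SE1 or SE3 at 0.0509 to 0.139), and all SA libraries lay below all WT libraries without passing the test (-0.18 on the log2 scale, edgeR adjusted p = 0.112). Slc7a11, the cystine transporter often read as an ATF4 target, averaged 24.1, 24.4 and 26.3 CPM and passed the test in no comparison.

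Enzymes of serine, one-carbon, proline and other amino acid synthesis rose in part. Of 12 listed genes 8 were tested, and 3 rose and 0 fell in each mutant against WT, with median log2 differences of 0.30 in SA and 0.29 in SE. Phgdh, the entry enzyme of serine synthesis, averaged 6.52 ± 0.860 CPM in WT libraries, 8.96 ± 0.626 in SA and 13.1 ± 1.25 in SE. The SE level exceeded that of WT 2.02-fold (edgeR adjusted p = 7.02e-05) and that of SA 1.47-fold (0.00487), and both held under all alternatives. Its SA fold over WT was 1.38 (edgeR adjusted p = 0.0426), a call that ended in 10 of 18 alternatives, among them those without WT1, WT3, any SA library or SE1 (0.0626 to 0.231). Mthfd2, a mitochondrial folate enzyme, stood at 14.9, 15.4 and 14.7 CPM in WT libraries, 24.0, 20.1 and 19.5 in SA, and 22.1, 21.6 and 24.0 in SE. Its folds over WT were 1.42 and 1.51 (edgeR adjusted p = 0.00269 and 0.00084), and both held under all alternatives. Psat1, the next enzyme of serine synthesis after Phgdh, rose in SA (1.41-fold, edgeR adjusted p = 0.0175, ended without WT3, SA1 or SA3 with adjusted p up to 0.123). In SE its adjusted p was 0.21. Aldh18a1, which acts in proline synthesis, rose in SE (1.35-fold, edgeR adjusted p = 0.0119, ended without SE1 at 0.0725), and in SA its adjusted p was 0.0532.

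**Figure D3:**
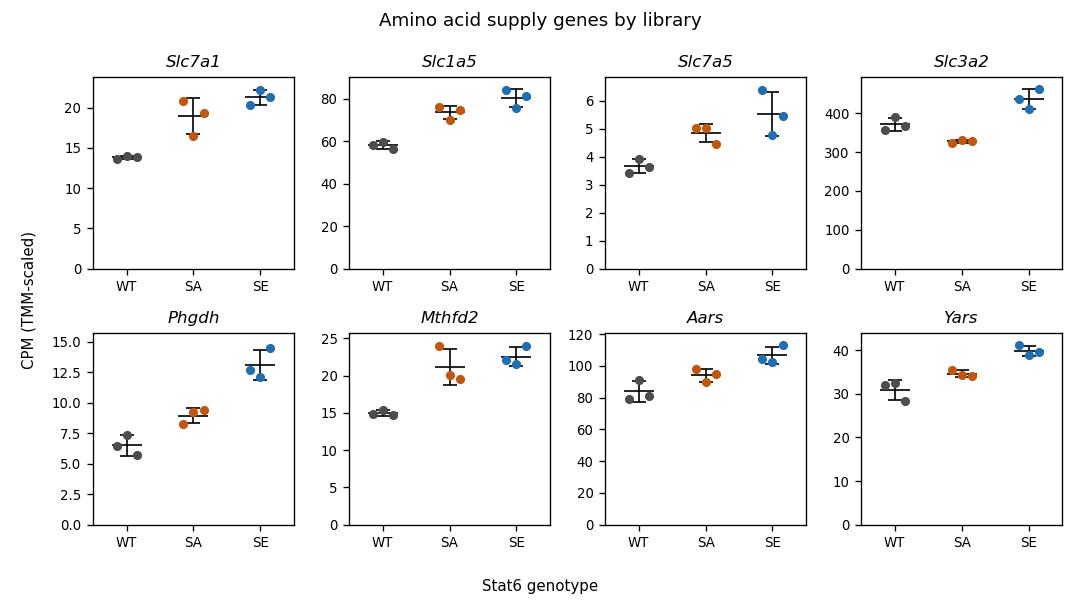
Levels in CPM (TMM-scaled) of 8 genes of amino acid import, amino acid synthesis and tRNA charging in the 9 libraries, each panel with its own axis from 0; points are libraries, horizontal lines group means and error bars SDs. Slc1a5, Slc7a1 and Mthfd2 stand above WT in all 6 mutant libraries, Phgdh stands highest in SE (12.1 to 14.5 CPM), and Slc3a2 stands lowest in SA.

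Of the 13 genes of tRNA charging and export that ATF4 is known to raise, 3 rose and 0 fell in SE against WT. The median log2 difference was 0.15, and 12 of 13 lay above 0. The exception was Xpot, the tRNA exporter of this list, at -0.06. At an unadjusted p under 0.05 there were 8. The 3 were the synthetases Aars (1.27-fold, edgeR adjusted p = 0.00578), Yars (1.29-fold, 0.00578) and Cars (1.20-fold, 0.0285). The calls of Aars and Yars ended without WT3 (0.0514 and 0.0584), and that of Cars ended in 7 alternatives, among them those without WT1, WT3, SE1 or SE3 (0.0695 to 0.114). In SA against WT 0 of the 13 rose and 0 fell by edgeR (3 at an unadjusted p under 0.05) and 0 by DESeq2, and the median was 0.08. The smallest p there was that of Iars (0.22 on the log2 scale, edgeR adjusted p = 0.145). In SE against SA edgeR and DESeq2 both called 0 (3 at an unadjusted p under 0.05), with the smallest p for Yars (edgeR adjusted p = 0.0856). The 8 other cytosolic synthetases gave the same median of 0.15 in SE against WT, and 2 of them rose: Rars (1.25-fold, edgeR adjusted p = 0.00862) and Vars (1.25-fold, 0.0324). The Rars call ended without WT3 or SE1 (0.0749 and 0.0663). In SA against WT edgeR called 0 of the 8 (0 at an unadjusted p under 0.05, 0 by DESeq2), and Kars had the smallest p (edgeR adjusted p = 0.415). In SE against SA 1 was called, Rars (1.29-fold, edgeR adjusted p = 0.00169). The Vars call ended in 8 alternatives, among them those without WT1, WT3, SA3, SE1 or SE3 (0.0511 to 0.153).

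**Figure D4:**
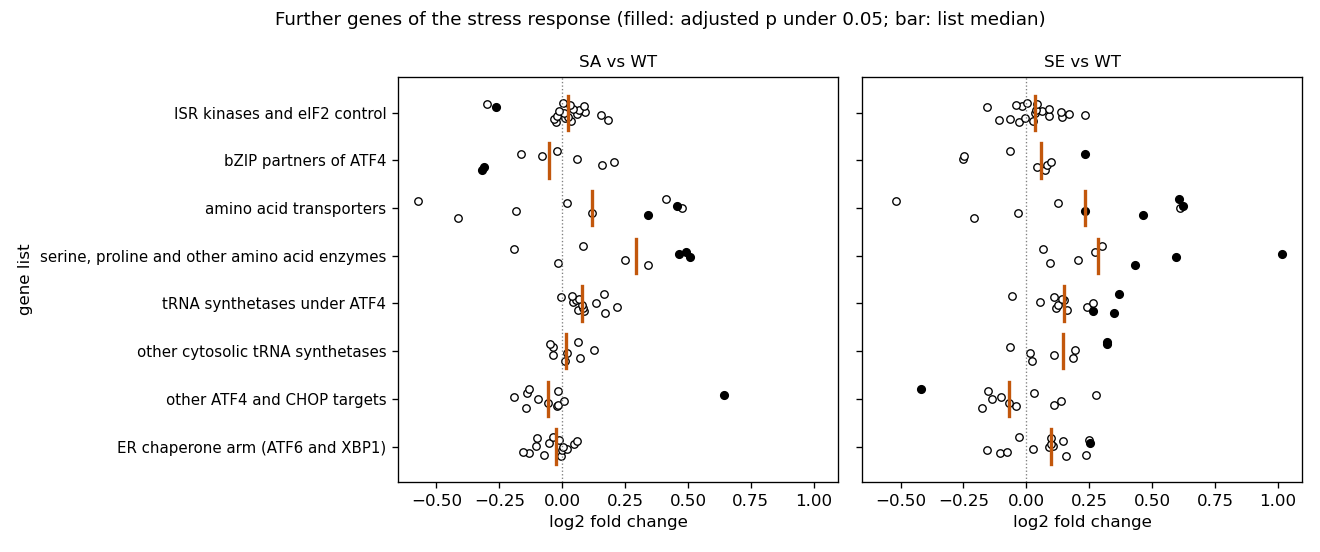
Log2 differences from WT of the tested genes of 8 pathway lists, with SA on the left and SE on the right; each point is a gene, filled where its adjusted p is under 0.05, and bars mark list medians. Against WT, the medians of the transporters and amino acid enzymes lie at 0.12 and 0.30 in SA and at 0.23 and 0.29 in SE, while that of the eIF2 kinases and eIF2 control lies at 0.02 and 0.04.

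Few other targets of ATF4 and CHOP passed the test. Of 11 tested, 1 rose in SA against WT (Nupr1, a stress-induced chromatin protein, from 6.57 ± 0.784 to 10.2 ± 1.11 CPM, 1.56-fold, edgeR adjusted p = 0.00456). In SE against WT 0 rose (1 at an unadjusted p under 0.05, 0 by DESeq2) and 1 fell. The 1 was Vegfa, the vascular growth factor, which was 1.34-fold lower (edgeR adjusted p = 0.00945, ended without WT3 or SE1 at 0.0781 and 0.067). In SE against SA edgeR called 0 of the 11 (3 at an unadjusted p under 0.05, 0 by DESeq2), and Vegfa had the smallest p (edgeR adjusted p = 0.0527). Gdf15, a secreted hormone of stressed cells, averaged 5.01, 5.06 and 5.54 CPM, and Fgf21 had 0 counts in every library. Of 14 chaperone genes of the ATF6 and XBP1 branch, 0 rose or fell in SA against WT (1 at an unadjusted p under 0.05, 0 by DESeq2), 1 rose in SE against WT and 3 in SE against SA. The 1 called in SE against WT was Pdia4, a protein disulfide isomerase (1.19-fold, edgeR adjusted p = 0.0142). Its call ended without WT1, WT3, SE1 or SE2 (0.0544 to 0.0656) and without WT1 and SE2 together, with a highest adjusted p of 0.155. Relative to SA, Pdia4 (1.23-fold, edgeR adjusted p = 0.00227) and Creld2 (1.24-fold, 0.0282, ended without SA1, SA2, SE1 or SE3 with adjusted p up to 0.164) gave the largest rises in SE. Dnajc3 had the smallest p in SA against WT (edgeR adjusted p = 0.352).

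Among 8 bZIP factors that can pair with ATF4, 2 fell and 0 rose in SA against WT. Cebpa and Cebpb, C/EBP factors of the myeloid lineage, were 1.25-fold and 1.24-fold lower in SA than in WT (edgeR adjusted p = 0.0023 and 0.00665; Cebpb ended without SA3 at 0.0542). Cebpa averaged 511 ± 26.1 CPM in WT libraries, 409 ± 7.06 in SA and 539 ± 22.6 in SE, and its SE fold over SA was 1.32 (edgeR adjusted p = 0.000221). In SE against WT 1 of the 8 rose, Jun, a subunit of AP-1 (1.18-fold, edgeR adjusted p = 0.0183). Its call ended without WT1, WT3 or SE1 (0.0554 to 0.114) and when only those 2 groups were fitted. Against SA, 3 of the 8 were higher in SE, Jun (1.32-fold, edgeR adjusted p = 0.000148), Cebpa and Cebpb, and 1 was lower, Fos (1.24-fold, 0.0257). The Fos call ended without SA1, SA3, SE1 or SE2 and without WT1 and SE2 together, with adjusted p up to 0.158. Of 9 tested relatives of the 10 genes, 0 rose and 2 fell in SA against WT (Cebpa and Cebpb again), and 1 rose and 1 fell in SE against WT. Batf3, a bZIP factor related to ATF3, was 1.58-fold higher in SE (32.7 against 51.5 CPM, edgeR adjusted p = 5.02e-05). Sesn1, a p53-regulated sestrin, was 1.18-fold lower (156 against 132 CPM, edgeR adjusted p = 0.0179). The Sesn1 call ended without WT3 or SE1 (0.099 and 0.0996) and when only the WT and SE groups were fitted. Against SA, 4 of the 9 were higher in SE and 1 was lower, with Batf3 (1.47-fold, edgeR adjusted p = 0.000124) and Sesn1 (1.21-fold lower, 0.00469) among them.

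Genes of handling, hormone and oxygen responses that can move beside these targets were also read. Of 11 immediate early genes 0 were called in SA against WT (3 at an unadjusted p under 0.05, 0 by DESeq2), where Zfp36 had the smallest p (edgeR adjusted p = 0.0847). In SE against WT 2 rose and 2 fell. Nr4a1, an orphan nuclear receptor, was 1.65-fold lower in SE (edgeR adjusted p = 0.00705) and Btg2, an antiproliferative factor, 1.29-fold lower (0.00936). The Btg2 call ended without WT3 (0.0706) and without WT1 and SE2 together. Egr2, a zinc finger factor, was 1.21-fold higher (0.00594, and 0.0544 without WT3), and Jun is given above. In SE against SA 3 were higher and 2 lower, among them Egr1 (1.41-fold higher, edgeR adjusted p = 0.0473). The Egr1 call ended in 11 of the 17 alternatives that gave an adjusted p, among them those without WT3, any SA library, SE1 or SE2 (up to 0.197). Btg2 was 1.37-fold lower there (0.000973).

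The 6 glucocorticoid targets did not share a direction. In SA against WT 2 rose and 0 fell, while at an unadjusted p under 0.05 there were 2 higher and 4 lower, and the list median was -0.18. The 2 were Zbtb16, a zinc finger repressor (0.886 ± 0.364 against 2.23 ± 0.360 CPM, 2.47-fold, edgeR adjusted p = 0.0092, ended without WT3 or SA1 with adjusted p up to 0.0717), and Fkbp5, a co-chaperone of the glucocorticoid receptor (1.43-fold, 0.00441). The other 4 had log2 differences of -0.19 (Tsc22d3), -0.25 (Per1), -0.20 (Klf9) and -0.17 (Dusp1). In SE against WT 2 rose, Fkbp5 (1.56-fold, edgeR adjusted p = 0.000829) and Klf9 (1.39-fold, 0.00149), with a list median of 0.18. Between the mutants, Klf9 was 1.59-fold higher in SE (edgeR adjusted p = 3.2e-05) and Zbtb16 2.01-fold lower (0.024, ended without SA1, SE1 or SE2 with adjusted p up to 0.118).

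Of 7 hypoxia targets 1 rose in SA against WT, Pdk1, a kinase that inhibits pyruvate dehydrogenase (1.49-fold, edgeR adjusted p = 4.5e-05), and in SE against WT 2 fell, Ndrg1 (1.39-fold, 0.00458) and Vegfa. Relative to SA, Pdk1 was 1.57-fold lower in SE (edgeR adjusted p = 1.15e-05) and Ndrg1 1.35-fold lower (0.00466). The part of the genes of these lists in the results for the 10 genes was not tested.

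The genes most like Atf4 across the 9 libraries, by Pearson correlation of log2 CPM over 9115 genes of sufficient level, were Gatm (r = 0.993), Arg1 (0.978), Cblb (0.977), Gdf3 (0.977) and Ide (0.976). With the genotype means removed, these values were 0.94, 0.632, 0.697, 0.783 and 0.887. For Asns the 5 were Slc9b2 (0.954), Hacd2 (0.93), Fyn, Mcmbp and Mrps6 (0.928 each). Atf4 and Ddit3 correlated at 0.862 over the 9 libraries and at -0.221 with genotype means removed. Atf4 and Asns correlated at 0.379 and at 0.762. Atf5 and Cebpg correlated at -0.814 and at -0.917. These values describe the 9 libraries, in which all genes share depth and scaling, and carry no test.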

How the data were processed

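Raw read counts per Ensembl mouse gene, as deposited by the authors, were used for 9 poly(A) libraries, 3 per genotype. HISAT2 2.1.0, featureCounts and mm10 are named per the submitters' processing notes. No annotation release, strand setting or treatment of reads with several alignments was given in the sources used here. GENCODE M21 gave symbols and positions for 55141 of the 55401 gene IDs and none for 260.

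A single edgeR 4.0.16 fit in R 4.3.3 held the 9 libraries (filterByExpr with minimum count 10 and minimum total 15, TMM, robust quasi-likelihood fit on genotype), which left 13501 genes, 6 residual degrees of freedom and a biological coefficient of variation of 6.75%. The 3 comparisons were tested 2-sided, and a gene was called, written as rose or fell, where its p, adjusted over the 13501 genes by Benjamini-Hochberg, was under 0.05. Intervals are 95%. The fit was also run on counts simulated from its own means and spread. These hold no deviations shared between libraries, so they cannot check calls that depend on such deviations.

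Genes and lists were chosen with earlier results of these data known, and lists come from textbook knowledge. The text names all 10 genes, their 5 nearest genes by correlation (mean of at least 5 CPM, given for Atf4 and Asns), and per list and comparison up to 2 called genes in each direction, by size of change, or, with none called, the gene with the smallest p. Aldh18a1, Cars, Xpot, Mars, Slc7a11, Eif2ak3, Eif2ak4, Gdf15, Fgf21, Tsc22d3, Per1, Dusp1, Atp5b and the marker genes were named outside this rule, after their values were seen. Chac1, Ddit4 and Trib3 rest on few counts. The 18 alternatives were the DESeq2 1.42.0 test and size factors, library totals alone, other filters, 2-group fits, a replicate block and left-out libraries.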

Additional observations from a re-analysis of the deposited data

How the results depend on the processing

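Of 64 called results, 29 held under all 18 alternatives and 0 reversed. Of 29 results not called, 6 changed sign. Correlations of same-numbered deviations from the group means ran from -0.195 to 0.105. With 3 libraries a group, they cannot decide whether replicate numbers mark pairs. With the replicate block 500 genes were called in SA against WT, 568 in SE against WT and 1189 in SE against SA, and 1, 4 and 2 of the 10 genes. Chac1 was the 1 lost (edgeR adjusted p = 0.0666). Against 549 genes called in SA against WT and 680 in SE against WT, leaving out WT2 and SE3, which deviated together (correlation 0.27), gave 903 and 1215, leaving out WT1 and SE2 (0.178) gave 372 in SE against WT, and fitting only those 2 groups gave 438. Of the 10 genes, 5 called in SE against WT became 3 with 2 groups and 3 without WT1 and SE2, and 2 in SE against SA became 4 with DESeq2 and 4 without WT2 and SE3. Leaving out each library gave 297 to 652 genes in SA against WT, 292 to 1097 in SE against WT and 781 to 1762 in SE against SA, and 0 to 1, 0 to 5 and 1 to 4 of the 10. The cause was not tested.

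Signs that changed, all of log2 differences that passed no test, were these. Atf4 in SA against WT was 0.0266 with library totals alone, 0.0055 with no filter, 0.0027 with a 5 CPM filter, 0.0015 with 2 groups, 3e-04 with the block and 0.0339 without WT1 and SE2, and -0.0215 to 0.0333 with each library left out. Atf5 in SA against WT was -0.012 without WT1 and SE2 and -0.0129 to 0.2101 with each library left out. Cebpg in SE against SA was 0.045 without WT2 and SE3 and -0.0897 to 0.0467 with each left out. Ddit4 in SA against WT was 0.0191 with library totals alone, 0.1142 without WT2 and SE3 and -0.1956 to 0.201 with each left out. Sesn2 in SA against WT was 0.0052 with library totals alone and -0.1301 to 0.0394 with each left out. Trib3 in SE against SA was 0.0763 without WT1 and SE2 and -0.05 to 0.0815 with each left out. Library totals alone changed the split of calls in SE against SA from 644 higher and 732 lower to 473 and 925, and moved the median of all genes by -0.05. Ddit4, Trib3 and Chac1 gave no value under the 5 CPM filter. At 1 to 24 counts per library, Chac1 and Ddit4 are limited by depth.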
